A study of Mus musculus with 6 samples.

Results

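The genes described here are 9 close neighbours of H2ax (H2afx), the histone variant gene that was deleted, on mouse chromosome 9. They are Cbl, Pdzd3, Nlrx1, Abcg4, Hinfp, C2cd2l and Dpagt1 on one side of H2ax, and Vps11 and Hyou1 on the other side, in the order of the RefSeq gene table (assembly GRCm38.p6). They were chosen by position, with earlier results of these data known, and are not the 9 nearest measured genes. Slc37a4, Trappc4, Rps25, Ccdc84, Foxr1 and Ccdc153 lie nearer to H2ax than Cbl and were not among the 9. A gene entered through the probe sets whose annotation names that gene alone. All 9 had such a probe set, out of 19938 genes measured in all and 1165 on chromosome 9. RNA was taken from untreated mouse embryonic fibroblasts (MEFs) of 2 genotypes, H2AX knockout (KO) and H2AX wild type (WT), with 3 Affymetrix Gene ST arrays for each. Both kinds of cells came from the same laboratory source and were grown in the same medium. The sources used here do not give the age of the embryos, the strain, the targeting construct, or whether a genotype stands for 1 line or embryo or for several. P-values therefore measure the spread between these arrays, which may be technical, and other differences between the 2 cell populations cannot be told apart from the genotype.

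A gene is commonly deleted in mice by recombination in embryonic stem cells, which leaves the neighbouring genes in place. Such alleles are known to be able to disturb genes nearby, because a selection cassette can carry its own promoter and because the DNA around the target keeps the sequence of the stem cell strain after crossing to another strain. Genes inherited with the target in this way are called passengers. The levels of close neighbours can therefore serve as a check on such an allele. H2AX itself is known for marking DNA breaks when phosphorylated, and the known roles of its neighbours are unlike each other, from sugar transfer to ubiquitin ligation.

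Of 10 fibroblast markers, among them Col1a1, Col3a1, Vim and Pdgfra, all 10 lay above the array median on all 6 arrays, as the cell label implies. The same held for 2 of 6 macrophage and leukocyte markers, 1 of 5 epithelial markers and 0 of 4 endothelial markers. The mean log2 value of the fibroblast markers lay between 11.19 and 11.21 on KO arrays and between 10.73 and 10.81 on WT arrays. Of the 10, 5 were higher and 4 lower (limma, adjusted p under 0.05), while 33.4% of all genes passed. Among genes at or above the median gene by mean value 53.1% passed. Without Thy1 the mean lay between 11.24 and 11.28 on KO arrays and between 11.19 and 11.27 on WT arrays. Thy1 thus carried most of the gap in the mean, while 4 of the other 9 markers were higher and 4 lower. The part of these markers in the results on the neighbours was not tested. The mean of the leukocyte markers lay between 5.42 and 5.48 on KO arrays and between 5.40 and 5.48 on WT arrays. The epithelial mean lay between 5.58 and 5.73 on KO arrays and between 5.59 and 5.60 on WT arrays, and the endothelial mean between 4.71 and 4.86 on KO arrays and between 4.83 and 4.94 on WT arrays. Array medians over all probe sets ran from 6.06 to 6.12, on a log2 scale that spanned 2.94 to 13.72. The values are the authors' normalized log2 expression values, in which a change of all RNA at once is not visible, and fewer cells of a kind cannot be told apart from less RNA per cell.

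H2ax was measured first as a check on the labels. Its log2 values were 7.69, 7.77 and 7.67 on the 3 KO arrays, against 8.96, 9.18 and 9.0 on the 3 WT arrays. No KO array reached the lowest WT array, and the log2 difference of KO minus WT was -1.34 (SE 0.07, limma, adjusted p = 5.8e-07). H2ax was thus 2.53-fold lower, with a 95% interval of the log2 difference from -1.51 to -1.17. The KO values still lay above the array median, and whether the probes lie within the deleted DNA is not known here. A further pair of probe sets list H2ax together with many replication-dependent H2A genes and were not assigned to it. They stood at log2 means of 12.96 and 12.57 in KO cells, against 12.80 and 12.37 in WT cells.

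Of the 9 neighbours, 3 were higher in H2AX KO cells, 6 did not pass and none was lower (limma over all 19938 genes, adjusted p under 0.05). The 3 were Vps11 and Dpagt1, the nearest measured genes on either side of H2ax, and Hinfp. This share of 33.3% stands beside a background of 33.4% of all genes that passed in either direction, 18.4% higher and 15% lower. These 9 genes thus passed about as often as any other gene. No neighbour exceeded a fold of 2, which 5.3% of all genes did. The log2 differences of the 9 genes lay between -0.09 for Cbl and 0.30 for Vps11, with a median of 0.10, while the median over all genes was 0.02. The median size of the difference, whatever its sign, was 0.10 for the neighbours and 0.13 for all genes. At an unadjusted p under 0.05, 4535 of all 19938 genes were higher and 3597 lower. At that threshold the same 3 neighbours passed and none was lower. Without KO replicate 3 the number of higher genes was 1, and without any other single array it was 2 or 3.

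**Figure D1:**
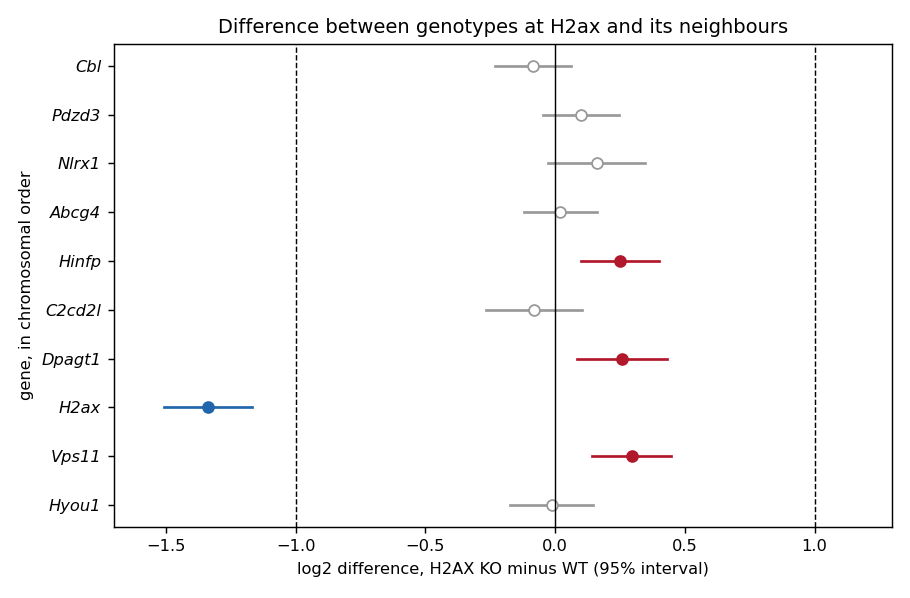
Log2 difference of H2AX KO minus WT MEFs on the x axis for H2ax and its 9 neighbours, in chromosomal order down the page. Points are estimates and bars are 95% intervals from limma, filled red for higher, filled blue for lower and open grey for genes that did not pass an adjusted p under 0.05. Dashed lines mark a fold of 2, which H2ax exceeded at -1.34, while the intervals of the 9 neighbours all end at or below 0.45.

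Vps11, a core subunit shared by the HOPS and CORVET complexes that tether endosomes and lysosomes before fusion, had the largest difference of the 9. Its log2 values were 8.74, 8.62 and 8.67 on KO arrays, against 8.29, 8.43 and 8.42 on WT arrays. The lowest KO array lay above the highest WT array. The log2 difference was 0.30 (SE 0.07, limma, adjusted p = 0.0073), a fold of 1.23. Vps11 passed the test under each of the 13 alternative settings, with adjusted p from 0.0026 to 0.034.

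Dpagt1 encodes the enzyme that begins the lipid-linked sugar precursor of N-glycans in the endoplasmic reticulum (ER). It had log2 values of 8.94, 8.88 and 8.90 on KO arrays, against 8.54, 8.61 and 8.80 on WT arrays. The groups did not overlap, although WT replicate 3 lay close below the KO arrays. The log2 difference was 0.26 (SE 0.08, limma, adjusted p = 0.028), a fold of 1.20. Of the 3 calls this was the least stable. It was lost without KO replicate 1 (adjusted p = 0.076), KO replicate 3 (0.078), WT replicate 1 (0.091) or WT replicate 2 (0.102), and also without moderation of the variance (0.103).

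Hinfp, a zinc finger protein known as an activator of histone H4 genes, was also higher. It had log2 values of 7.59, 7.60 and 7.57 on KO arrays, against 7.25, 7.43 and 7.32 on WT arrays. The KO arrays lay close together, with an SD of 0.01, and all of them above the WT arrays, whose SD was 0.09. The log2 difference was 0.25 (SE 0.07, limma, adjusted p = 0.016), a fold of 1.19. Without KO replicate 3 the adjusted p was 0.0501, and under the other alternatives it lay between 0.013 and 0.0498.

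**Figure D2:**
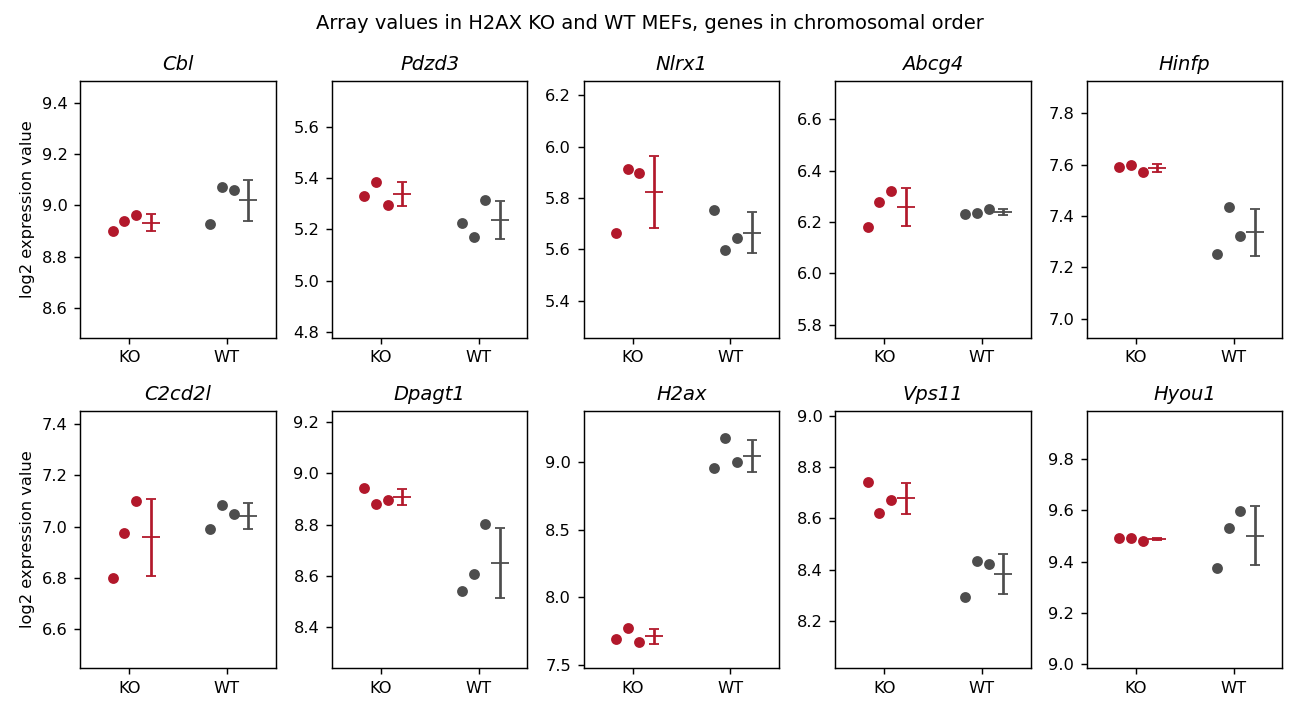
Log2 expression values of H2ax and its 9 neighbours, with 1 point per array, KO on the left and WT on the right of each panel. Horizontal marks and bars are the mean and SD of 3 arrays, panels for the neighbours span 1 log2 unit and the H2ax panel spans more. KO and WT points are separate for Hinfp, Dpagt1, Vps11 and H2ax and overlap in the other panels.

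The remaining 6 neighbours overlapped between genotypes. Non-overlap thus held for 3 of 9 neighbours, against 44.8% of all genes. Hyou1, an Hsp70-type chaperone of the ER lumen, lies just beyond Vps11. Its log2 values were 9.49, 9.49 and 9.48 on KO arrays, against 9.38, 9.53 and 9.60 on WT arrays. All KO values fell inside the WT range, and the log2 difference was -0.01 (95% interval from -0.17 to 0.15, limma, adjusted p = 0.92).

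C2cd2l, an ER protein that carries phosphatidylinositol at contacts with the plasma membrane, lies between Hinfp and Dpagt1, which were both higher. It had log2 values of 6.80, 6.98 and 7.10 on KO arrays, against 6.99, 7.09 and 7.05 on WT arrays. The KO arrays spread on both sides of the WT arrays, and the difference was -0.08 (95% interval from -0.27 to 0.10, adjusted p = 0.51).

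Abcg4, a transporter of the sterol-exporting G subfamily, had log2 values of 6.18, 6.28 and 6.32 on KO arrays, against 6.23, 6.23 and 6.25 on WT arrays. The difference was 0.02 (95% interval from -0.12 to 0.16, adjusted p = 0.86). The WT arrays were nearly equal and lay within the KO range.

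Nlrx1, an NLR family protein of mitochondria, was the only neighbour with more than 1 probe set. The brighter one had log2 values of 5.66, 5.91 and 5.90 on KO arrays, against 5.75, 5.60 and 5.64 on WT arrays. KO replicates 2 and 3 lay above all WT arrays and KO replicate 1 did not. The difference was 0.16 (95% interval from -0.03 to 0.35, adjusted p = 0.19), and it passed without KO replicate 1, at 0.24 (adjusted p = 0.040). The other probe set differed by 0.06 and did not pass either.

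Pdzd3, a PDZ scaffold of the NHERF family known from kidney and gut epithelium, had log2 values of 5.33, 5.39 and 5.30 on KO arrays, against 5.22, 5.17 and 5.32 on WT arrays. The difference was 0.10 (95% interval from -0.05 to 0.25, adjusted p = 0.29). Both Pdzd3 and Nlrx1 lay below the median of every array, and array signal near background tends to understate a fold.

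Cbl, a ubiquitin ligase that marks activated receptor tyrosine kinases for breakdown, is the farthest of the 9, at 8 measured genes from H2ax. It had log2 values of 8.90, 8.94 and 8.96 on KO arrays, against 8.93, 9.07 and 9.06 on WT arrays. The lowest WT array fell between the KO arrays, and the difference was -0.09 (95% interval from -0.23 to 0.06, adjusted p = 0.38). For each of the 9 genes the 95% interval lay between -0.27 and 0.45, that is below a 1.36-fold rise. With 3 KO and 3 WT arrays, the smallest two-sided p of an exact permutation test is 0.10 for any single gene.

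The wider neighbourhood was read from the same fit, over the measured genes nearest to H2ax. Among the 10 nearest on each side, 8 of 20 were higher in KO cells and none was lower (limma, and likewise 8 and 0 at an unadjusted p under 0.05). Of all genes, 18.4% were higher and 15% lower, and 44.8% had no overlap between genotypes. The 8 higher genes all had no overlap, which makes 40.0% of the 20, and none exceeded a fold of 2. Besides Vps11, Dpagt1 and Hinfp these were Slc37a4, the ER transporter of glucose 6-phosphate, Trappc4, a subunit of the TRAPP vesicle tether, the ribosomal protein gene Rps25, Bcl9l, a coactivator of beta-catenin, and the adhesion molecule Mcam. Slc37a4 had log2 values of 7.38, 7.21 and 7.31 on KO arrays, against 6.93, 7.07 and 7.01 on WT arrays, a difference of 0.30 (SE 0.07, adjusted p = 0.0088). The difference was 0.21 for Trappc4, 0.20 for Rps25, 0.65 for Bcl9l and 0.33 for Mcam. Rps25 carried 6 probe sets, all with differences between 0.20 and 0.38, and near-identical copies of this gene elsewhere in the genome make its place uncertain. Ccdc153, which lies between Cbl and Pdzd3, differed by -0.04 (adjusted p = 0.70).

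The count of 8 higher genes was less firm than the absence of lower ones. It was 4 without KO replicate 3 and 5 without WT replicate 1 or without WT replicate 2, while none was lower under any of these. Among the 25 nearest on each side, 15 of 50 were higher and 4 were lower, and without the 9 neighbours these were 12 and 4 of 41. The higher count was 9 without KO replicate 3. Of the rest of chromosome 9, 32.4% of 1114 genes passed, with 23.3% higher and 9.1% lower. Chromosome 9 without H2ax held more higher than lower genes, at 23.6% and 9.0%, against 18.4% and 15% of all genes. Whether the counts near H2ax differ from these shares was not tested.

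**Figure D3:**
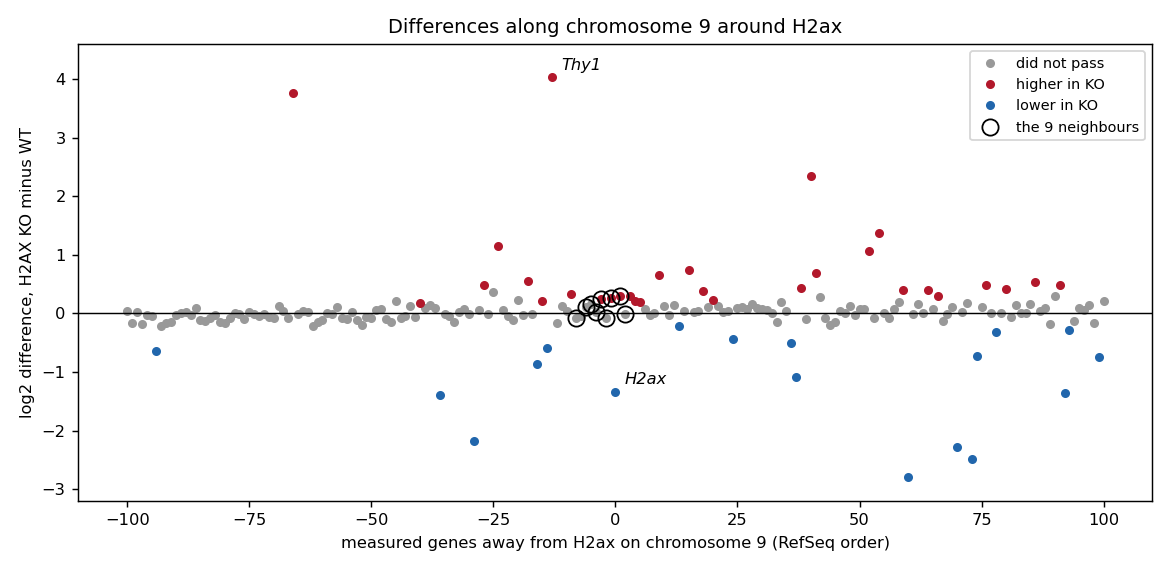
Log2 difference of H2AX KO minus WT MEFs on the y axis for each measured gene up to 100 genes away from H2ax on chromosome 9, on the x axis in RefSeq order. Red points were higher and blue points lower at an adjusted p under 0.05 from limma, grey points did not pass, and rings mark the 9 neighbours. The rings lie between -0.09 and 0.30, close to the line at 0, while Thy1 stands at 4.03.

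Among the 50 genes changes of both signs occurred beyond the 10 nearest on each side. The median size of the difference was 0.11 at ranks 1 to 10 and 0.14 at ranks 11 to 25, and the distances were not tested against each other. The largest difference was that of Thy1, a surface protein and itself one of the fibroblast markers above, at 13 genes from H2ax on the side of Cbl. It had log2 values of 10.57, 10.66 and 10.56 on KO arrays, against 6.52, 6.52 and 6.65 on WT arrays, a difference of 4.03 (SE 0.07, adjusted p = 2.6e-10). The next rises were in the sorting receptor gene Sorl1 at 1.15, Ift46 of intraflagellar transport at 0.73, Bcl9l at 0.65 and Tlcd5 at 0.55. The 4 falls were in Oaf at -0.87, the adhesion gene Nectin1 at -0.59, Mpzl2 at -0.43 and Phldb1 at -0.22. Thy1 and Sorl1 alone exceeded a fold of 2, or 2 of 50. Between Thy1 and Cbl, the measured genes Usp2, Rnf26, Gm10687 and Mcam had log2 differences of -0.17, 0.13, 0.04 and 0.33, of which only Mcam passed. A change of the size of Thy1 was not measured in any gene between it and H2ax.

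By distance, 40.0% of the genes at ranks 1 to 10 were higher and 0% lower. At ranks 11 to 25 these shares were 23.3% and 13.3%, at ranks 26 to 50 they were 10% and 8.0%, and at ranks 51 to 100 they were 10% and 9.0%. Olfactory receptor genes, which are silent in most tissues, made up 10 of the 50 genes at ranks 26 to 50 and 48 of the 100 genes at ranks 51 to 100, and none nearer. When only genes at or above the median gene by mean value were kept, a choice made after seeing the data, the higher and lower genes were 8 and 0 of 12 at ranks 1 to 10, 4 and 3 of 16 at ranks 11 to 25, 3 and 3 of 18 at ranks 26 to 50, and 7 and 7 of 25 at ranks 51 to 100. Of all genes kept in this way 29.9% were higher, and of those on chromosome 9 without H2ax 38.7% were higher and 14.5% lower. The difference between distances was not tested.

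**Figure D4:**
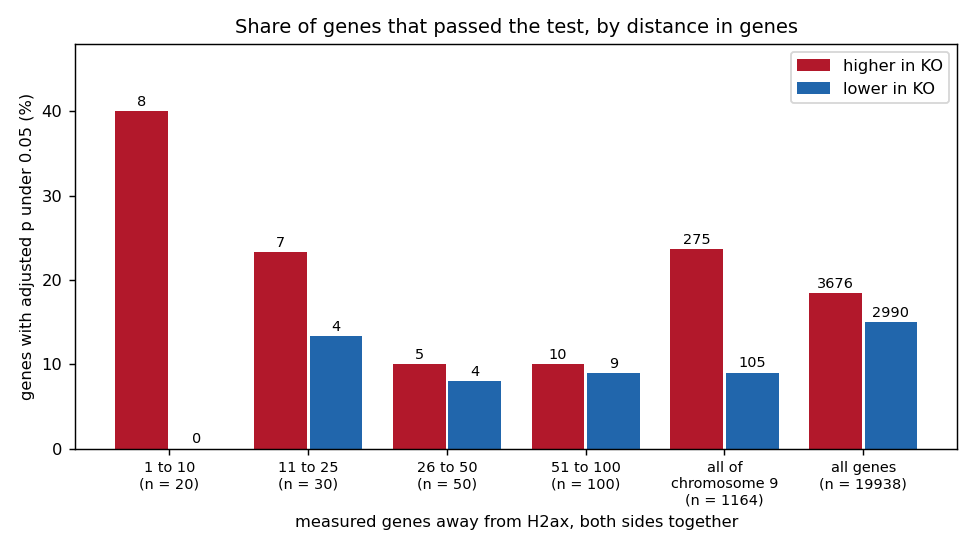
Share of genes with an adjusted p under 0.05 on the y axis, in percent, by their distance from H2ax in measured genes, with both sides together. Red bars are genes higher and blue bars genes lower in H2AX KO cells, with the number of genes above each bar. At ranks 1 to 10 there are 8 higher genes and 0 lower, while at ranks 51 to 100 there are 10 and 9.

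Each neighbour was also set beside other genes of its own pathway, to see whether these moved in the same way. The counts of each list are read beside the shares of all genes, of which 33.4% passed, 18.4% higher and 15% lower. Among genes at or above the median gene by mean value 53.1% passed, 29.9% higher and 23.2% lower. Hyou1 did not pass, whereas most of its partners were lower. Of 16 other ER chaperones and folding enzymes, 10 were lower in KO cells, 6 did not pass and none was higher (limma, with 1 higher at an unadjusted p under 0.05). The lower count was 8 to 10 under the alternatives, and 1 gene was higher under 6 of them, among these leaving out KO replicate 2 or WT replicate 3, median centring, quantile normalization and the filter on low means. Dnajc10, a disulfide reductase of the ER, had a log2 difference of -1.01 (SE 0.10, adjusted p = 3.8e-05) and Dnajb9, a cochaperone of BiP, one of -0.83 (SE 0.10, adjusted p = 0.00011). Hspa5, which encodes BiP itself, fell by 0.44 on the log2 scale, and Hsp90b1 fell by 0.37. The median of the list was -0.35, against -0.01 for Hyou1, whose 95% interval reached down to -0.17. Whether Hyou1 differs from these genes was not tested.

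The partners of Dpagt1 and of Vps11 moved in both directions, and most did not pass. Of 21 other genes of lipid-linked oligosaccharide assembly, the pathway that Dpagt1 begins, 4 were higher, 1 was lower and 16 did not pass, with a median of 0.01. Alg3, a mannosyltransferase, rose by 0.44, and Dpm2, a subunit of dolichol-phosphate mannose synthase, fell by 0.44. The higher count was 9 without KO replicate 2 and 2 without WT replicate 2, while without moderation of the variance it was also 2. The lower count was 2 without WT replicate 1 and 3 after quantile normalization. Of 9 other genes listed with HOPS and CORVET, 2 were higher and 2 lower, with a median of -0.07. The list includes Vps33b and Vipas39, which are not subunits of either complex. Vipas39, at -0.27, was 1 of the 2 lower genes. Vps8 of CORVET rose by 0.44 and Vps41 of HOPS fell by 0.35. No gene of this list passed without moderation of the variance. Without KO replicate 3, 1 was higher and 1 lower. The lower count was 1 without KO replicate 2 and 0 without WT replicate 2 or without WT replicate 3.

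Of 6 measured histone H4 genes, 1 was higher, H4c3 at 0.54 (SE 0.16, adjusted p = 0.027), and 5 did not pass, with differences between 0.16 and 0.32. The median of the list was 0.23. At an unadjusted p under 0.05, 4 were higher and none was lower (limma). Of all 19938 genes, 4535 were higher and 3597 lower at that threshold. KO replicate 2 was the highest array for each of the 6 genes. For H4c3 it stood at 9.13, against 8.44 and 8.53 on the other KO arrays. Without KO replicate 2 the higher count at adjusted p under 0.05 was still 1. Histone H4 genes are near-identical in sequence, so that a probe for one may also bind another. The higher count was 4 without KO replicate 1, and 3 with the trended and robust prior or the filter on low means. It was 0 without WT replicate 1, without WT replicate 2 or without moderation of the variance. Hinfp itself stood at 0.25.

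For the neighbours that did not pass, the counts over the partner lists are likewise given as a description beside the shares of all genes. Of 12 other family members and adaptors of Cbl, 2 were higher and 5 lower, led by Ubash3b at -2.18 and Spry2 at -1.47 (1 was higher without KO replicate 1, KO replicate 3, WT replicate 1 or WT replicate 2). The related ligase Cblb had a difference of -0.19 (adjusted p = 0.046). Set beside Abcg4 were 8 genes of the same transporter subfamily and of cholesterol export, among them Apoe and Nr1h3, which do not encode transporters. Abcg2 at -1.26 and Abca1 at -1.21 were lower and the other 6 did not pass (limma, with 1 higher at an unadjusted p under 0.05). Of 8 genes listed with mitochondrial antiviral signalling and set beside Nlrx1, 3 were lower and 1 was higher, Tufm at 0.27. The lower count was 2 to 4 under the alternatives. The RNA sensors Ifih1 and Ddx58 both stood at -1.64. Of 3 NHERF scaffolds set beside Pdzd3, Slc9a3r2 was higher at 0.68 and Slc9a3r1 lower at -0.73. Of 13 proteins of ER and plasma membrane contacts set beside C2cd2l, 3 were higher and 4 lower, from -1.39 for Gramd1b to 1.32 for Gramd2 (5 were higher without KO replicate 2). Ubash3b and Gramd1b themselves lie on chromosome 9, at ranks 26 to 50 from H2ax on the side of Cbl. Of the 50 genes at these ranks on both sides, 4 exceeded a fold of 2, against 5.3% of all genes.

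**Figure D5:**
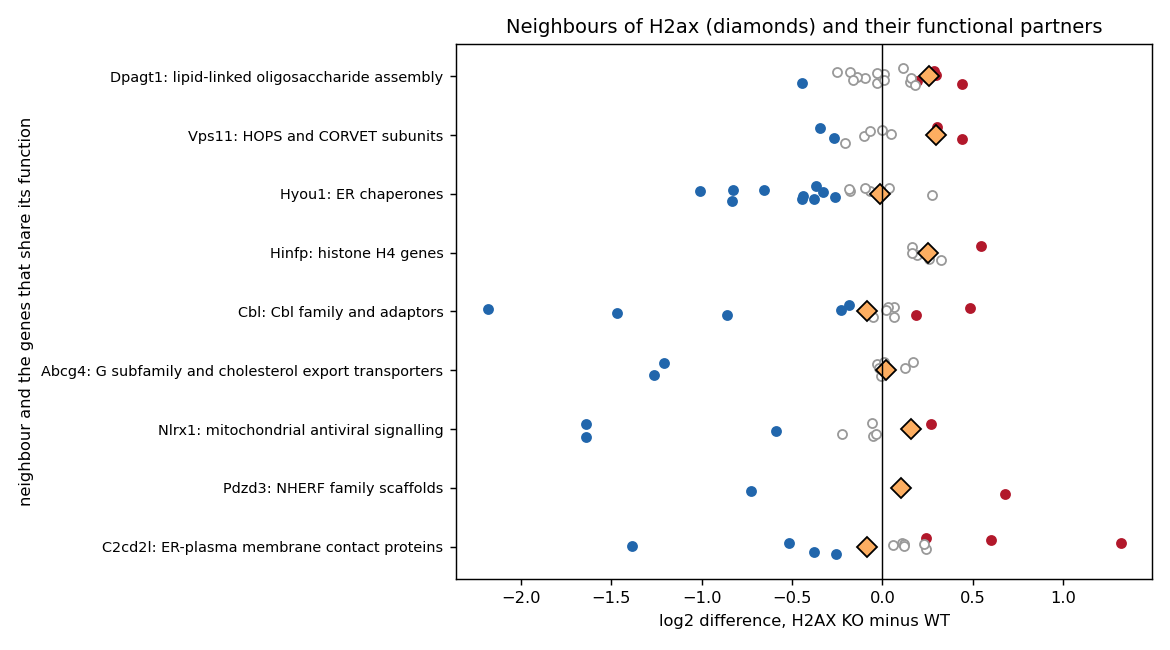
Log2 difference of H2AX KO minus WT MEFs on the x axis for the 9 neighbours of H2ax (diamonds) and, in the same line, the other measured genes of each one's pathway (circles, red higher, blue lower, open not passed at an adjusted p under 0.05 from limma). The diamond of Hyou1 lies at -0.01, to the right of the 10 lower ER chaperones, and all diamonds lie between -0.09 and 0.30.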

How the data were processed

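RNA was measured on 3 H2AX KO and 3 WT arrays. By the methods and the submitters' notes, CHP files were made in Affymetrix Expression Console, and the authors' normalization was run in Partek 6.6. This gave the deposited log2 value of each of 35556 probe sets. How background was corrected, how probes were summarized and which genome build was used is not given in the sources used here. Gene order therefore comes from RefSeq (GRCm38.p6), and no coordinates are printed. The methods name a Gene 2.0 ST array, but the identifiers are those of version 1.0.

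Of the probe sets, 21789 carried 1 symbol, and the brightest one stood for a gene. Genotypes were compared with limma (version 3.58.1, R 4.3.3) without covariates, with Benjamini-Hochberg adjustment over 19938 genes. The code was tested on simulated data. Named genes were the 9 neighbours, H2ax, the 5 largest rises and falls among 25 genes on each side, genes between neighbours, and the 2 largest changes of each partner list. Hspa5, Hsp90b1, Cblb, Usp2, Rnf26, Gm10687 and the changed genes among the nearest 10 were named after their values were seen. The neighbours and lists were chosen with earlier results of these data known. The number of arrays limits the precision.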

Additional observations from a re-analysis of the deposited data

How the results depend on the processing

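Of the alternatives, 6 left out 1 array each. The others were a test without moderation of the variance, a trended and robust prior, the replicate number as a block, quantile normalization, median centring, averaging a gene's probe sets and a filter on low means. H2ax and Vps11 passed in all 13. The number of higher neighbours lay between 1 and 3 when an array was left out. Among the 10 nearest genes on each side the higher count was 5 with the replicate block and between 4 and 8 when an array was left out. Among the 25 nearest on each side the higher count lay between 9 and 15 when an array was left out. It was 10 with the replicate block, 13 without moderation of the variance and 16 after quantile normalization. With a fold over 2 it was 2, with 0 lower. The differences of Abcg4 and Hyou1, which did not pass, changed sign. Abcg4 lay between -0.0106 (without KO replicate 3) and 0.06. Hyou1 lay between -0.0763 (without WT replicate 1) and 0.035 (without WT replicate 3), and was 0.002 without WT replicate 2. Same-numbered arrays had correlations of -0.29, -0.24 and 0.08 of their deviations from the genotype means. Between differently numbered arrays the correlations ran from -0.165 to 0.32. With deviations from means of only 3 arrays, these values cannot decide whether the arrays were handled in numbered pairs. With the replicate block 5810 genes passed, against 6666 without it, and Dpagt1 did not (limma, adjusted p = 0.057). Of the HOPS and CORVET list 1 gene was lower in place of 2, while 1 ER chaperone and 1 partner of Cbl were higher, against 0 and 2. The window of 10 was planned, but its values under the other settings, and those of partner lists, were added after the data were seen. Low signal took Pdzd3, Nlrx1 and Abcg4 out of the test under the filter.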
